A study of Rattus norvegicus with 20 samples.

Results

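The 10 genes described here encode RNA-binding proteins that neurons use to choose exons and to set the fate of their transcripts: Nova1 and Nova2, Rbfox1, Rbfox2 and Rbfox3, the neuronal Elavl genes Elavl2, Elavl3 and Elavl4, Celf4, and Ptbp2. They were picked by symbol from the 31038 genes of the matrix, and all 10 had enough reads to be tested among 16605 genes. The reads came from the medial prefrontal cortex (mPFC) of 20 male Sprague-Dawley rats, which were 6 to 8 weeks old when treatment began. Of these, 10 were injected intraperitoneally with 0.16 mg/kg LSD, a hallucinogenic agonist of serotonin receptors, on alternate days for 90 days, and 10 received sterile saline on the same schedule. All were then left without injections for 3 weeks. Age and interval are those of the labels, and the study's methods give somewhat older rats and a longer interval. Each rat gave 1 poly(A)-selected library, so the replicates are separate animals, and the comparison asks whether repeated LSD leaves a lasting difference in the transcripts of these regulators.

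As the pre-mRNA of a gene is made, RNA-binding proteins attach to short sequence motifs in exons and the introns beside them and promote or prevent the use of an exon, depending on where they sit. Nova, Rbfox, neuronal Elavl and Celf proteins shape the splicing, stability and localisation of transcripts for ion channels, receptors and synaptic proteins. Ptbp2 (nPTB) takes over from its paralogue Ptbp1 when progenitors become neurons and holds back exons of the mature neuronal programme. Reads summed over a gene, which are what was deposited, show how much transcript there is and not which exons it contains. Transcript lengths were not used here, so levels are compared between rats and never between genes, and in bulk tissue fewer cells of a type cannot be told apart from less RNA per cell.

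The region just before the transcription start was available from RefSeq (build GRCr8) for 7 of the 10 genes, and not for Rbfox2, Rbfox3 and Celf4. Of the 7, 4 are written out as 250 bases 5′ to 3′ on the gene's own strand, because these genes lie on opposite sides of the results that follow. Elavl3 has a lower level in LSD rats once reads are scaled to library size, whereas Elavl2, Elavl4 and Ptbp2 vary together among the rats and have the highest estimates. Capitals mark each GC box (GGGCGG) and CCAAT box (CCAAT) on either strand. The Elavl3 window is chr8:28859014-28859263, Elavl2 chr5:111202288-111202537, Elavl4 chr5:130367664-130367913 and Ptbp2 chr2:210558278-210558527, all on the minus strand.
Elavl3: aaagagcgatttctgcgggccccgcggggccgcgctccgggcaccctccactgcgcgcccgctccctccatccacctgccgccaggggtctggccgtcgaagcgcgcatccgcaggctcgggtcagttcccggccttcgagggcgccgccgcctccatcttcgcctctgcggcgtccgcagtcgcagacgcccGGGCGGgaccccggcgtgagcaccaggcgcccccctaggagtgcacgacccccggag
Elavl2: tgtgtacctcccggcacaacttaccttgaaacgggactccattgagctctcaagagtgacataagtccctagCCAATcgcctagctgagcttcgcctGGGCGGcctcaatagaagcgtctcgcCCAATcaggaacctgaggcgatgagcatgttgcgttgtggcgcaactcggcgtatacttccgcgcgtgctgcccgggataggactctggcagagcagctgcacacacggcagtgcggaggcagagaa
Elavl4: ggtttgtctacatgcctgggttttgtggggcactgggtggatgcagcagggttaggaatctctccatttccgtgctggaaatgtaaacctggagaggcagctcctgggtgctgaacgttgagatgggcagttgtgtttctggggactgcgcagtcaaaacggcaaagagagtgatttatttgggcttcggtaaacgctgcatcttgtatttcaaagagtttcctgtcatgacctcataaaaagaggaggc
Ptbp2: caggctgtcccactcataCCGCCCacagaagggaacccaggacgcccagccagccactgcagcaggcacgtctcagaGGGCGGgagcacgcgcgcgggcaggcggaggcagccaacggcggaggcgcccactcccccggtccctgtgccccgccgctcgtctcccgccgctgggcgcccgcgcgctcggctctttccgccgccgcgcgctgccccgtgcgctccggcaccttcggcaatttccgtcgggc

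Base composition separates the windows of the 3 neuronal Elavl genes. A single window per gene was read, and whether cortex uses that start was not tested. The Elavl3 window is 75.6% G and C with 35 CG dinucleotides, Elavl2 is 58.4% with 18, and Elavl4 is 49.6% with 6, against medians of 51.2% and 5 over 33469 rat promoters. Ptbp2 resembles Elavl3, at 75.6% with 34. The Nova1, Nova2 and Rbfox1 windows hold 14, 15 and 3 CG dinucleotides. A GC box is present in Nova2, Elavl2, Elavl3 and Ptbp2 and in 30.5% of all promoters, and a CCAAT box in Nova2 and Elavl2 and in 34.0% of all. No window of the 7 contains TATAAA, the cAMP response element TGACGTCA or the E-box CACGTG, which 12.9%, 1.59% and 5.59% of promoters hold, or GCGTGGGCG, the site of Egr factors, which 0.478% hold.

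Celf4 and Elavl3 were lower in LSD-treated rats than in saline-treated rats, and no gene of the 10 was called higher. Celf4 fell by 16.3% and Elavl3 fell by 12.5%, which makes 2 of 10 genes where 8.54% of all genes tested were called lower and 6.48% higher; the list as a whole was not tested. The calls come from edgeR's quasi-likelihood test on read counts with Benjamini-Hochberg adjustment over all 16605 genes and a threshold of 0.05. Without adjustment, 3 of the 10 were lower at that threshold and 2 higher, and DESeq2 gave the same counts with and without adjustment, where it called 10.3% of all genes lower and 8.07% higher. The 10 genes together had a median log2 fold change of −0.01 and a median absolute change of 0.14, and all genes tested had 0.00 and 0.14. Directions within the list were mixed, as the plot of reads in each rat shows.

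**Figure D1:**
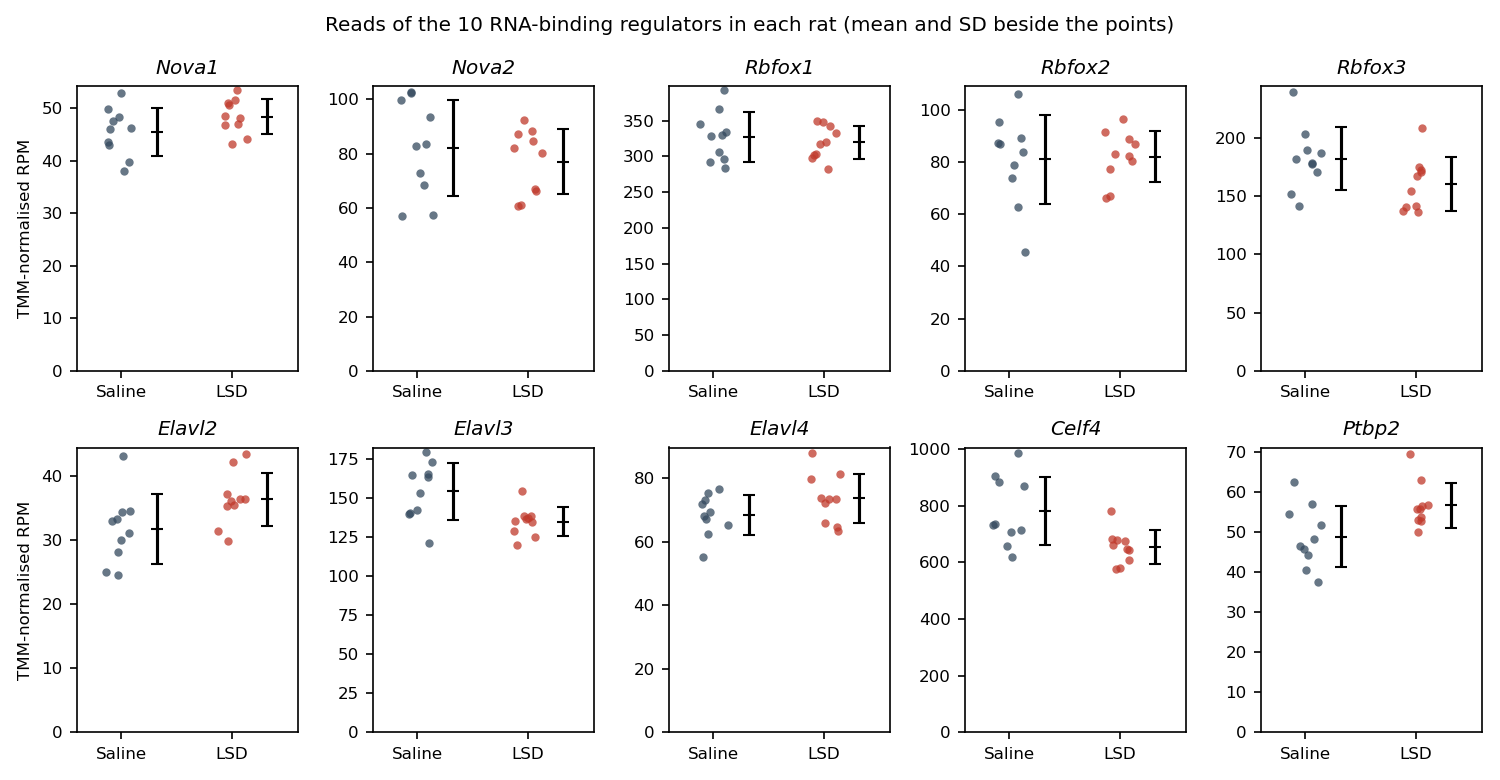
TMM-normalised RPM (vertical axes from 0) of the 10 regulators in each of 10 saline (blue) and 10 LSD (red) rats, with the mean and SD of each group as a bar beside its points. Celf4 and Elavl3 sit lower in LSD rats and Ptbp2 higher, and the groups overlap in every panel.

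Celf4 encodes a protein that binds many synaptic transcripts in neurons, and its loss causes seizures in mice. It had 9371 to 16301 reads per rat. Its level is given as RPM, reads scaled to a common library size after TMM normalisation. In LSD rats it ran from 575 RPM through a median of 654 to 779, and in saline rats from 618 through 735 to 985. In LSD rats 9 of 10 values lay below the saline median, 3 of them below the lowest saline rat, and the 4 highest values of all belonged to saline rats. The mean was 653 ± 59.4 RPM with LSD and 780.3 ± 121 with saline (SD, n = 10 each). The log2 fold change was −0.26 (SE 0.078, adjusted p = 0.0307 in edgeR). The call was kept in 12 of the 20 fits that left out a rat, and the fold change stayed between −0.29 and −0.21 over all 20. It was lost without LSD rat 7, 8, 9 or 10 or without saline rat 1, 3, 4 or 5, at an adjusted p of 0.055 to 0.0693.

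Elavl3 (HuC) is one of the Hu proteins, which bind U-rich and AU-rich RNA in neurons and both stabilise transcripts and direct their splicing. In LSD rats it ranged from 119.9 to 154 RPM with a median of 136, and in saline rats from 121 to 179 with a median of 158. Every LSD rat lay below the saline median, though the lowest saline rat was within 1 RPM of the lowest LSD rat. The means were 135 ± 9.29 and 154 ± 18.1 RPM (SD, n = 10 each), a log2 fold change of −0.19 (SE 0.063, adjusted p = 0.0404 in edgeR). This call was close to the threshold. It was kept only without LSD rat 1 or without saline rat 2, 6, 7 or 9, and the other 15 fits without a rat (LSD 2 to 10 and saline 1, 3, 4, 5, 8 and 10) gave adjusted p-values of 0.051 to 0.0879, with the fold change between −0.23 and −0.17 over all 20.

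The other Hu genes did not follow Elavl3. Elavl2 (HuB) ran from 29.9 through 36.2 to 43.4 RPM in LSD rats and from 24.5 through 31.99 to 43.1 in saline rats. Its log2 fold change was 0.20 (SE 0.087, adjusted p = 0.126 in edgeR), with 8 of 10 LSD rats over the saline median, and it passed the threshold only without saline rat 2, the highest saline value (0.26, adjusted p = 0.0218). For Elavl4 (HuD), whose targets include Gap43, the range was 63.2 to 88.0 RPM around a median of 73.5 with LSD and 55.3 to 76.6 around 68.6 with saline. Here 3 LSD rats exceeded every saline rat, and the fold change was 0.10 on the log2 scale (SE 0.064, adjusted p = 0.279 in edgeR).

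Ptbp2 was the regulator with the largest positive difference, short of the threshold. It ran from 50.03 RPM through 55.9 to 69.6 in LSD rats and from 37.6 through 47.5 to 62.6 in saline rats. All 10 LSD rats lay above the saline median, 2 of them above every saline rat. The means were 56.8 ± 5.67 and 49.0 ± 7.64 RPM (SD, n = 10 each), a log2 fold change of 0.21 (SE 0.079, adjusted p = 0.0703 in edgeR). Without saline rat 2 or saline rat 10, which had the highest saline values, the adjusted p was 0.0166 or 0.0343.

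The Rbfox proteins bind a shared motif in introns and are expressed in most neurons; Rbfox3 is the NeuN antigen that marks mature neurons, and Rbfox2 is also used outside the nervous system. Rbfox3 ran from 136 through 161 to 209 RPM in LSD rats and from 142 through 180.0 to 239 in saline rats. Of the LSD rats, 9 lay below the saline median and 4 below the lowest saline rat. The log2 fold change was −0.18 (SE 0.086) and did not pass after adjustment (unadjusted p = 0.0453, adjusted p = 0.152 in edgeR). Rbfox1, with 282 to 349.7 RPM (median 319) in LSD rats and 284 to 393 (median 329) in saline rats, differed by −0.03 (SE 0.059, adjusted p = 0.739 in edgeR). Rbfox2 differed by 0.02 (SE 0.108, adjusted p = 0.926 in edgeR) with LSD rats at 66.3 to 96.3 RPM (median 82.8), and saline rats spread beyond them on both sides, from 45.5 to 106 RPM (median 85.4). The sign for Rbfox2 turned without LSD rat 1 or saline rat 2 or 9.

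The Nova proteins were found as the target antigens of a paraneoplastic neurological disorder and direct the splicing of inhibitory synapse transcripts, with Nova2 the main form in cortex. Nova1 ran from 43.2 through 48.3 to 53.5 RPM in LSD rats and from 38.1 through 46.1 to 52.9 in saline rats, a log2 difference of 0.09 (SE 0.057, adjusted p = 0.299 in edgeR). Nova2 ran from 60.9 through 81.2 to 92.4 RPM and from 57.1 through 83.3 to 103, a difference of −0.09 (SE 0.113, adjusted p = 0.633 in edgeR). In both genes the groups overlapped over most of their range.

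The size of a difference depended on how gene span was handled. Rats differed in the reads of genes with long spans relative to short ones, and an offset for span in each rat, centred so that it does not shift a whole library, was one alternative. It moved all 10 estimates down: Celf4 to −0.37, Rbfox3 to −0.31, Elavl3 to −0.23 and Rbfox1 to −0.16, while Ptbp2 fell to 0.15, Elavl2 to 0.11, Elavl4 to 0.01 and Nova1 to 0.00. With it Rbfox3 was also called lower (adjusted p = 0.0234 in edgeR), making 3 of the 10 where 6.87% of all genes were lower. Rbfox2 turned to −0.08, and Rbfox1 lay at the threshold (adjusted p = 0.0503 in edgeR). Spans were read from GRCr8 and not from the rn6 annotation of the reads. Scaling by total reads shifted all genes by a median of 0.05 on the log2 scale, turned Rbfox1 to 0.01 and left Celf4 as the one regulator called lower, where 5.17% of all genes were.

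**Figure D2:**
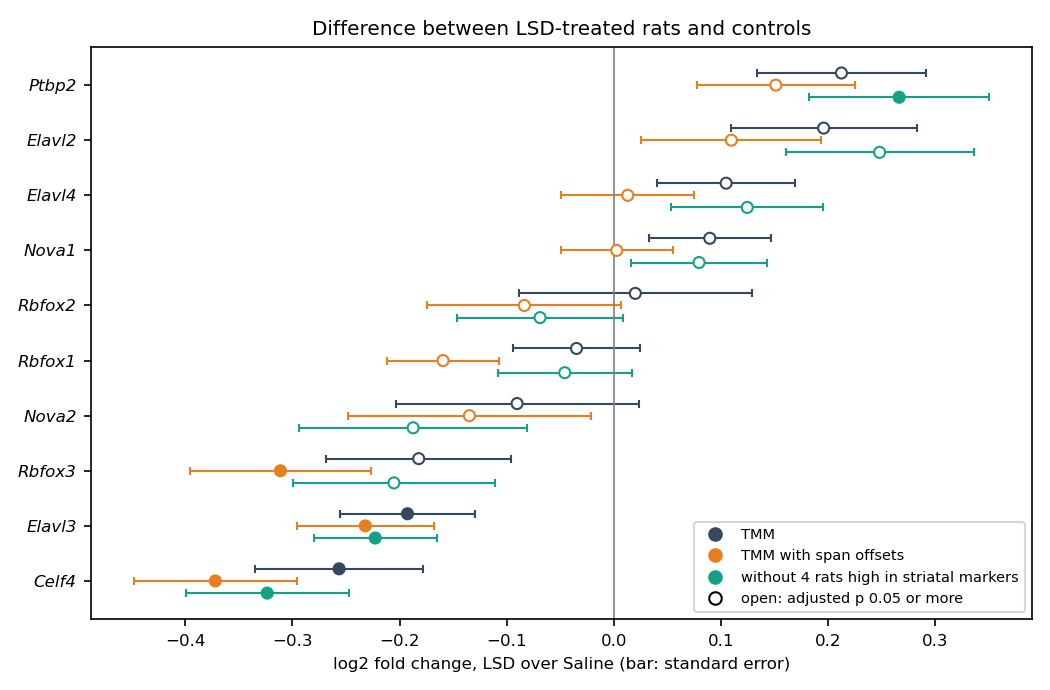
Log2 fold change (LSD over saline, horizontal axis) of the 10 regulators with its standard error, from edgeR after TMM (dark), with span offsets (orange) and without 4 rats high in striatal markers (green). Filled points have an adjusted p under 0.05: Celf4 and Elavl3 in all 3 fits, Rbfox3 with span offsets and Ptbp2 without the 4 rats.

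Ratios between family members in the same rat do not depend on how libraries are scaled, but they can still differ with library size or gene span. The log2 ratio of reads was compared between groups for 8 pairs by an exact two-sided rank sum test, adjusted over the 8, and 6 passed. Within the Elavl and the Rbfox family each ratio follows from the other ratios of that family, so the 8 are not independent. How large a share of other gene pairs would pass was not tested. The largest difference was in Elavl3 over Elavl2. This log2 ratio ran from 1.56 through 1.92 to 2.17 in LSD rats and from 1.49 through 2.35 to 2.75 in saline rats, a mean difference of −0.39 (exact p = 0.00684, adjusted p = 0.0182), and 7 of 10 saline rats exceeded every LSD rat. Saline rat 2 had the lowest value of all 20, followed by LSD rats 7 and 8 (1.56 and 1.57), in libraries of 24201351 to 25552681 reads on genes. The highest were in saline rats 4, 5 and 1 (2.75, 2.70 and 2.53), with 11098076 to 15346213 reads. Elavl3 spans 36.3 kb and Elavl2 126 kb in GRCr8, and no span offset was applied to the ratios. The part of library size or span in them was not tested.

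Elavl3 over Elavl4 was lower by 0.29 on the log2 scale (−0.29, exact p = 0.0052, adjusted p = 0.0182), from a median of 1.21 in saline rats to 0.885 in LSD rats. Elavl4 over Elavl2 differed by −0.10 (exact p = 0.00684, adjusted p = 0.0182), with LSD rats between 0.894 and 1.10 and saline rats between 0.829 and 1.38. In each of these 3 Elavl ratios all 10 LSD rats lay below the saline median. These 3 calls were kept whichever rat was left out.

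Rbfox3 was lower relative to both other Rbfox genes. Against Rbfox1 the log2 ratio differed by −0.15 (exact p = 0.0147, adjusted p = 0.0294), with a median of −0.98 in LSD and −0.86 in saline rats. Against Rbfox2 it differed by −0.22 (exact p = 0.0232, adjusted p = 0.0372), the medians being 0.995 and 1.14. The first of these was lost without LSD rat 8 or 10 or saline rat 1, and the second without any 1 of 10 rats (LSD 2, 5, 8 and 10 and saline 1, 2, 4, 5, 8 and 9; adjusted p = 0.058 to 0.0696 in the exact test). Without saline rat 9, whose log2 ratio of 1.96 stands above the next at 1.33, the second difference shrank to −0.14. Rbfox2 over Rbfox1 differed by 0.08 (exact p = 0.529, adjusted p = 0.529) and Nova2 over Nova1 by −0.17 (exact p = 0.247, adjusted p = 0.283), and neither passed the threshold.

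Ptbp2 over Ptbp1, the pair whose exchange marks neuronal differentiation, was higher in LSD rats, with log2 ratios from 0.127 through 0.436 to 0.959 against −0.50 through 0.243 to 0.775 in saline rats. The difference was 0.28 (exact p = 0.0288, adjusted p = 0.0384), with 8 of 10 LSD rats above the saline median, and 4 saline rats (1, 3, 4 and 5) lay below every LSD rat. Ptbp1 itself differed by −0.06 on the log2 scale (SE 0.074, adjusted p = 0.610 in edgeR). This ratio passed in 8 of the 20 sets without a rat. It was lost, at an adjusted p of 0.056 to 0.0713 in the exact test, without LSD rat 1, 3, 5, 7, 8 or 10 or saline rat 1, 3, 4, 5, 8 or 10.

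**Figure D3:**
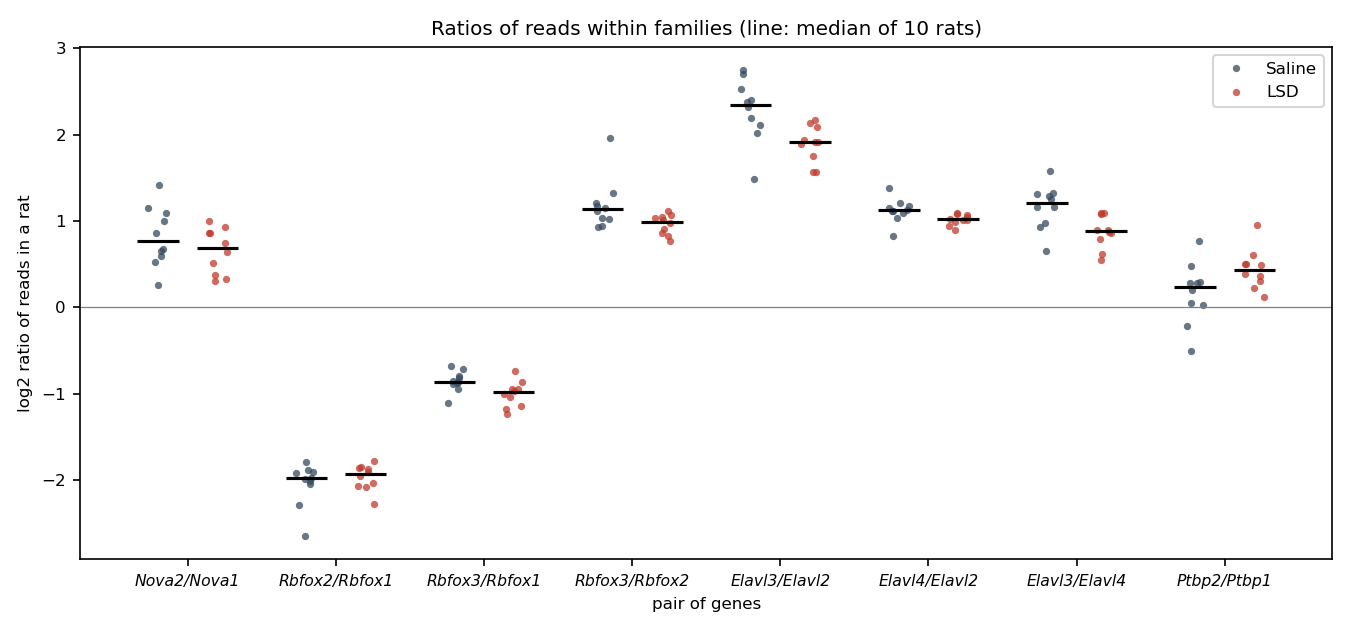
Log2 ratio of reads (vertical axis) for 8 pairs of genes (horizontal axis) in each of 10 saline (blue) and 10 LSD (red) rats, with a line at the median of each group. The LSD medians are lower in the 3 Elavl pairs and in Rbfox3 over Rbfox1 and over Rbfox2, and higher for Ptbp2 over Ptbp1; saline rat 9 stands apart in Rbfox3 over Rbfox2 at 1.96.

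The 10 genes varied together among rats of the same group. After each group's mean was subtracted from log2(normalised RPM + 1), 25 of the 45 pairs correlated over the 20 rats with an adjusted p under 0.05 (permutation within groups, 100000 resamples), 20 positively and 5 negatively. The median absolute correlation was 0.586, against 0.249 over all pairs of the genes tested. A correlation as strong as the weakest of the 25 (0.547 in size) was found in 55.6% of the pairs of regulators and in 12.8% of all gene pairs. The pairs share the same 20 libraries, so they are not independent of one another. LSD rats 7 to 10, with 22770382 to 25552681 reads on genes, had Nova2 at 60.9 to 67.1 RPM and Rbfox3 at 136 to 142 RPM. In LSD rats 1 to 6, with 16346629 to 20374594 reads, these were 80.3 to 92.4 and 154 to 209 RPM. Elavl2 and Ptbp2 were highest in LSD rats 7 and 8 and saline rat 2, but LSD rats 9 and 10 lay within the range of LSD rats 1 to 6. The part of library size in the correlations was not tested.

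Nova2, Rbfox2, Rbfox3, Elavl3 and Celf4 correlated positively with one another, past the threshold in all their pairs. So did Nova1, Elavl2, Elavl4 and Ptbp2, except Nova1 with Ptbp2 (r = 0.47, rho = 0.43, adjusted permutation p = 0.09). These sets of genes were read off the correlations themselves. The place of Rbfox2 in the first set depended on the setting. Rbfox2 with Celf4 missed the threshold with RPM from total reads, with span offsets and without the 4 rats described below (adjusted permutation p = 0.066, 0.165 and 0.288). Rbfox2 with Rbfox3 missed it in the first 2 of these settings (adjusted permutation p = 0.0588 and 0.13). Rbfox2 with Elavl3 missed it without the 4 rats (adjusted permutation p = 0.0707). The closest pair was Nova2 and Celf4 (r = 0.90, rho = 0.92, adjusted permutation p = 0.00015), and r was 0.86 without the 2 rats farthest from the median of Nova2. In each pair these were the 2 rats farthest in the gene that comes first in the opening list. They can thus differ between pairs, and rats that stand out only in the other gene were kept. Elavl2 and Elavl4 followed (r = 0.87, rho = 0.87, adjusted permutation p = 0.00015, r = 0.86 without the 2 rats farthest in Elavl2). Then came Elavl3 and Celf4 (r = 0.85, rho = 0.87, adjusted permutation p = 0.00015, r = 0.81 without the 2 farthest in Elavl3). The permutations behind these 3 values gave 1e-05, the smallest that they can give.

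Ptbp2 varied with Elavl2 (r = 0.83, rho = 0.80, adjusted permutation p = 0.000375, r = 0.70 without the 2 rats farthest in Elavl2). It varied against Celf4 (r = −0.73, rho = −0.69, adjusted permutation p = 0.00395, r = −0.54 without the 2 farthest in Celf4). Its correlations with Nova2 (r = −0.71, rho = −0.75, adjusted permutation p = 0.00396), Elavl3 (r = −0.69, rho = −0.68, adjusted permutation p = 0.0081) and Rbfox3 (r = −0.59, rho = −0.51, adjusted permutation p = 0.0187) were also negative. They stood at −0.72, −0.60 and −0.54 without the 2 rats farthest in Nova2, Elavl3 and Rbfox3 respectively. The fifth negative pair, Elavl2 and Celf4 (r = −0.55, rho = −0.47, adjusted permutation p = 0.0425), fell to −0.24 without the 2 rats farthest in Elavl2 and rests on them. Rbfox1 correlated with Rbfox3 (r = 0.76, rho = 0.80, adjusted permutation p = 0.000859) on one side and with Nova1 (r = 0.67, rho = 0.68, adjusted permutation p = 0.0081) on the other. These were 0.74 without the 2 rats farthest in Rbfox1 and 0.70 without the 2 farthest in Nova1. The number of pairs past the threshold was 25 with RPM from total reads (17 positive), 22 with span offsets (15 positive) and 19 without the 4 rats described below (16 positive).

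**Figure D4:**
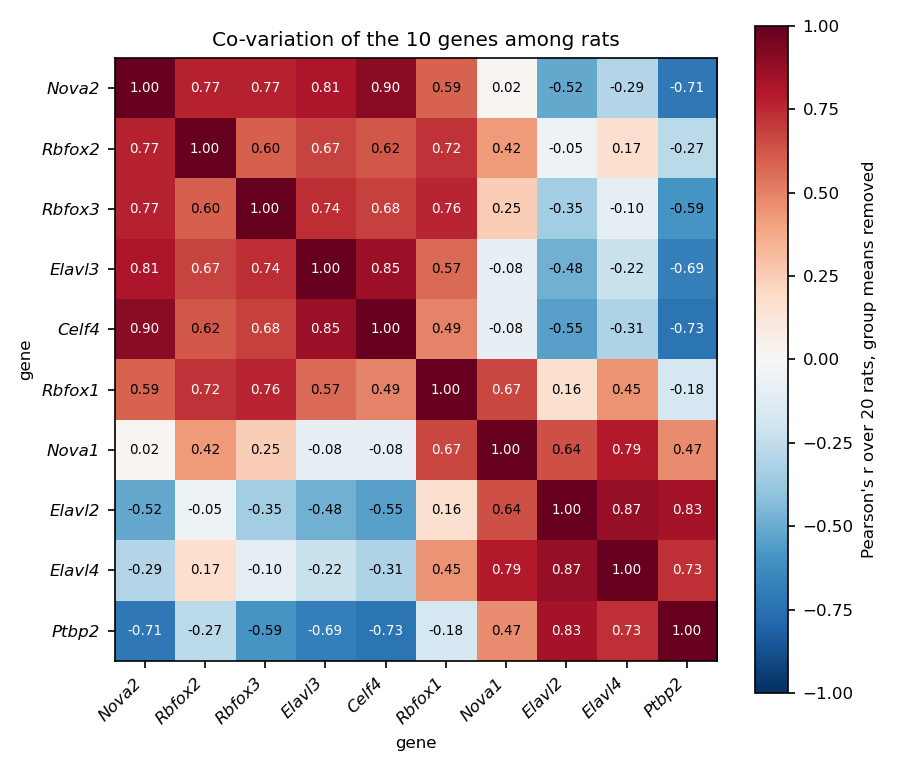
Pearson's r over 20 rats between each pair of the 10 regulators (rows and columns), from log2(normalised RPM + 1) with group means removed, on a colour scale from −1 to 1. Nova2, Rbfox2, Rbfox3, Elavl3 and Celf4 form a positive block at the top left, Nova1, Elavl2, Elavl4 and Ptbp2 another at the bottom right, and the correlations between them reach −0.73 for Celf4 and Ptbp2.

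For the called genes, the genes of the whole table whose pattern over the 20 rats was most like theirs are given as a description. For Celf4 they were Nrxn2 (r = 0.949), a presynaptic adhesion molecule, Agap2 (r = 0.945), a GTPase-activating protein, and Dvl1 (r = 0.944), of the Wnt pathway. For Elavl3 they were R3hdm2 (r = 0.907), Srf (r = 0.899), the transcription factor of activity-dependent genes, and Zbtb7a (r = 0.898). The SD of log2(normalised RPM + 1) was smaller in LSD than in saline rats for 9 of the 10 regulators, the exception being Elavl4, and for 76.7% of all genes tested. The median SD of the 10 was 0.142 with LSD and 0.214 with saline, against 0.15 and 0.193 over all genes.

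Other RNA-binding regulators of the same families and pathways numbered 27 symbols, of which 26 were in the matrix and 23 had enough reads. Of the 23, 3 were called higher in LSD rats and 0 lower in edgeR, where 6.48% and 8.54% of all genes were (8 and 4 of the 23 at an unadjusted p under 0.05), and 13 estimates were above 0 and 10 below. Mbnl2, of the muscleblind proteins that switch exons from fetal to adult patterns, had means of 138 ± 8.2 and 115 ± 14.1 RPM in LSD and saline rats (SD, n = 10 each), a log2 fold change of 0.26 (adjusted p = 0.0119 in edgeR). Celf2, a paralogue of Celf4, was at 194 ± 11.3 and 167 ± 16.8 RPM, 0.22 higher (adjusted p = 0.0135 in edgeR). Elavl1 (HuR), the Hu gene used in all tissues, was at 26.7 ± 2.9 and 23.2 ± 1.94 RPM, 0.20 higher (adjusted p = 0.0355 in edgeR). With span offsets the estimates stayed above 0 but none of these 3 passed (Mbnl2 0.16, Celf2 0.10 and Elavl1 0.16, adjusted p = 0.0924, 0.139 and 0.0902 in edgeR), and Khdrbs3 and Msi1 were called lower in their place (−0.22 and −0.23).

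Transcripts that these proteins are known to bind or splice were followed as 29 genes, all with enough reads. Of the 29, 3 were called higher and 2 lower in LSD rats, where 6.48% and 8.54% of all genes were. Of the 9 listed for neuronal Elavl proteins, 2 were called higher and 2 lower. The lists of the other regulators, which share genes, had 1 call in 9 for Nova, 1 in 8 for Rbfox, 1 in 4 for Ptbp2 and 0 in 1 for Celf4 (also 0 at an unadjusted p under 0.05 in edgeR). The 4 called Elavl targets are given here. Bdnf, the neurotrophin, had the largest difference of the 4, from 15.8 ± 1.66 RPM in saline to 21.8 ± 4.13 in LSD rats (SD, n = 10 each; 0.46 on the log2 scale, adjusted p = 0.00689 in edgeR). Nf1, the Ras regulator neurofibromin, differed by 0.38 (adjusted p = 0.012 in edgeR), Ache, acetylcholinesterase, by −0.33 (adjusted p = 0.0182 in edgeR), and Gap43, the growth cone protein, by −0.15 (adjusted p = 0.0438 in edgeR). With span offsets these 4 genes kept their calls and directions.

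Markers of cell types were read in the same fit. The general neuronal markers divided, with Map2 called higher and Tubb3 lower of 8, and none of 5 excitatory markers was called (1 at an unadjusted p under 0.05, lower). Of 6 interneuron markers, Gad2 and Vip were higher and Slc32a1 and Sst lower, and of 7 astrocyte markers Slc1a2 was higher. All 6 oligodendrocyte markers were below 0 (3 at an unadjusted p under 0.05, none after adjustment), with a summed level of 2232 to 5761 RPM in LSD and 2195 to 7479 in saline rats. Microglia, oligodendrocyte precursor, endothelial and choroid plexus lists had no called gene (1 endothelial marker lower at an unadjusted p under 0.05), and of 4 red blood cell genes Hbb was lower. With span offsets Slc32a1 and Vip kept their calls, and Map2, Tubb3, Gad2, Sst, Slc1a2 and Hbb did not (adjusted p = 0.0522 to 0.102 in edgeR). The part of these markers in the results was not tested.

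The 6 marker genes of striatal projection neurons moved with the groups and set 4 rats apart. All 6 had negative log2 fold changes, among them the dopamine receptors Drd1 (−0.61) and Drd2 (−0.84) and the adenosine receptor Adora2a (−1.06), and none passed after adjustment (6 at an unadjusted p under 0.05 in edgeR). None of the 6 was at 0 in any rat. Their sum was 201 to 435 RPM in LSD and 230.4 to 609.5 in saline rats, with medians of 244 and 299.7. LSD rat 9 and saline rats 2, 8 and 9 had sums of 435 to 609.5 RPM, and the other 16 had 201 to 324.

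Without those 4 rats, 9 LSD and 7 saline rats remained, and both called genes were further from 0. Of the rats left out, saline rats 2 and 9 had the lowest saline Celf4 values (618 and 656 RPM). Saline rat 2 also had the lowest saline Elavl3 value (121 RPM) and the highest saline Ptbp2 value (62.6 RPM), and LSD rat 9 the lowest Elavl3 value of all (119.9 RPM). The part of striatal tissue in these changes was not tested. Celf4 was at −0.32 (SE 0.076, adjusted p = 0.00946 in edgeR) and Elavl3 at −0.22 (SE 0.057, adjusted p = 0.0138 in edgeR), and Ptbp2 also passed (0.27, SE 0.084, adjusted p = 0.0325 in edgeR). Elavl2 stood at 0.25 (adjusted p = 0.0517 in edgeR), while Rbfox2 turned to −0.07. In this fit 10.1% of all genes were called lower and 10.2% higher. The difference in Rbfox3 over Rbfox2 shrank to −0.14 (adjusted p = 0.131 in the exact test), and Rbfox2 over Rbfox1 turned to −0.025 (adjusted p = 0.918 in the exact test).

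**Figure D5:**
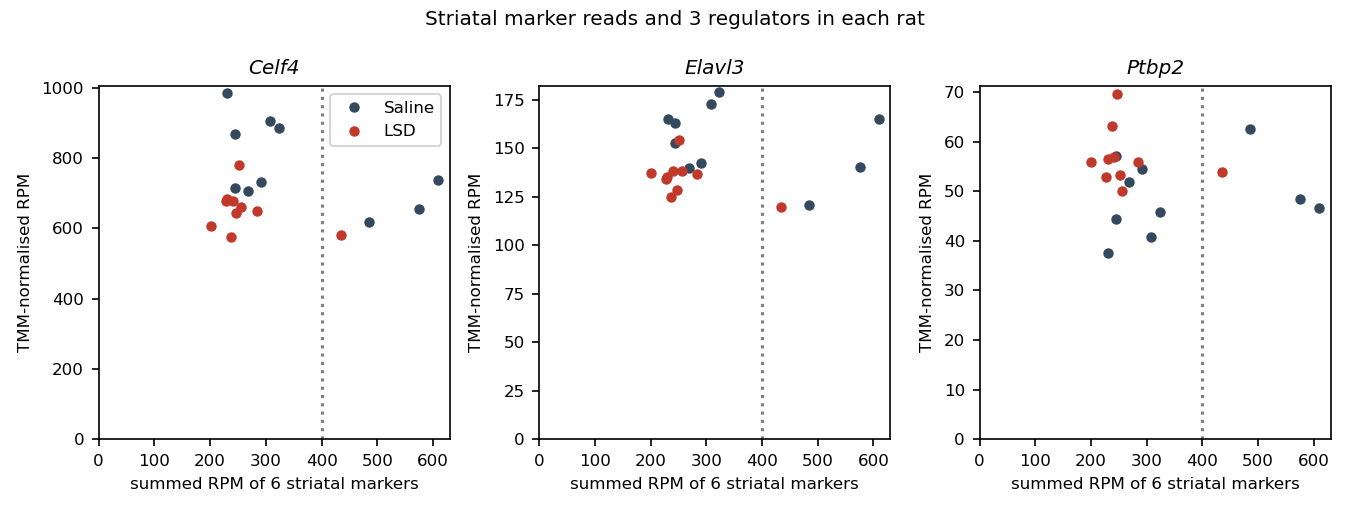
Normalised RPM of Celf4, Elavl3 and Ptbp2 (vertical axes from 0) against the summed RPM of 6 striatal marker genes (horizontal axis) in 10 saline (blue) and 10 LSD (red) rats, with a dotted line at 400. The 4 rats right of the line, 3 saline and 1 LSD, do not hold the highest Celf4 values, and left of it 4 saline rats lie above every LSD rat in Celf4.

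Total reads on genes were 16346629 to 25552681 in LSD rats (median 20271086) and 11098076 to 24201351 in saline rats (median 16815424). Saline rats 1, 3, 4 and 5, the smallest libraries, held the highest Celf4 values (868 to 985 RPM) and the lowest Ptbp2 values (37.6 to 45.9 RPM) of all rats. With reads drawn down to equal totals, Celf4 was at −0.25 (adjusted p = 0.0309 in edgeR) and Elavl3 at −0.19 (adjusted p = 0.055 in edgeR). That draw evens the totals only, so it cannot show what part library size had in the levels. The regulator with the fewest reads, Elavl2, had 270 to 1127 per rat. In GRCr8, 3 genes overlap Rbfox1, 5 overlap Rbfox3 and 1 overlaps Celf4, none of which has an entry in the matrix, and the strand setting of the counting is not given in the sources used here. Across all genes 56.9% of the calls were lower in LSD rats, a share that was 36.3% with scaling by total reads, 46.5% without a filter on low counts and 65.8% with span offsets.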

How the data were processed

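RNA from the mPFC of 20 rats was sequenced, with groups taken from the sample labels. The authors deposited raw read counts per gene, made with HTSeq-count from reads trimmed by TrimGalore and placed on rn6 by Hisat2; tool versions, annotation and strand setting are not given in the sources used here. The 5 entries without a name (25.5 to 29.0% of each column) were left out.

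Genes reaching 5 reads in 10 or more rats entered edgeR 4.0.16 in R 4.3.3 (quasi-likelihood test, TMM, Benjamini-Hochberg, threshold 0.05), after a check on simulated counts. Ratios (pseudocount 0.5) were compared by exact rank sum tests over 184756 splits in Python 3.11.15 with scipy 1.17.1, and correlations (pseudocount 1) by 100000 permutations within groups. The SDs measure differences between rats, and no interval for counting error is given.

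Alternatives were DESeq2 1.42.0, its size factors, total scaling, no filter, filterByExpr, a replicate block, 1 surrogate variable from sva 3.50.0, equal depth, span offsets and each rat left out. Leaving out 4 rats with over 400 RPM of striatal markers was chosen after seeing the data.

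The genes and lists were chosen with earlier results of these data known. Named are the 10 genes, the called genes of the other lists (some items are not reported here), genes whose role a sentence needs, and the 3 genes most correlated with each called regulator. Names, spans and promoters came from RefSeq tables of GRCr8, whose coordinates were not mixed with rn6.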

Additional observations from a re-analysis of the deposited data

Results flagged for a closer look

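Among 36 sets of 10 rats examined for a value standing apart (each regulator and each ratio in each group), 2 had one by Dixon's 95% critical value for 10 samples, and chance alone gives about 1 in 20. In Celf4, LSD rat 1 had 779.4 RPM where the next highest LSD rat had 683.7, a gap of 0.468 of the group's range. Without that rat the LSD values would all lie below the saline median. In Rbfox3 over Rbfox2, saline rat 9 had a log2 ratio of 1.961 where the next was 1.325, a gap of 0.62 of the range. That rat is also among the 4 with high striatal markers and has the lowest Rbfox2 level of all 20, 45.5 RPM.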

How the results depend on the processing

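The sign of the log2 fold change was kept under all 31 alternatives for 8 of the 10 regulators, and turned for Rbfox1 (total scaling, 0.012) and Rbfox2 (span offsets −0.084, with the replicate block −0.071, without the 4 striatal-high rats −0.069, and −0.049 to 0.071 over the fits without a rat). Celf4 was called in 10 and Elavl3 in 8 of 11 alternatives that did not leave out a single rat. The causes of the changes that follow were not tested.

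Regulators called lower numbered 1 with total scaling (Elavl3 adjusted p = 0.0607), 0 without a filter (2 at an unadjusted p under 0.05, where 3.32% of all genes were called lower), 1 at equal depth (7.92% of all genes) and 4 with span offsets and the block (7.99%), and 0 to 2 without a rat. Regulators called higher numbered 1 without the 4 rats and 0 to 2 without a rat. Related regulators called, 3 as reported, numbered 5 with total scaling, 6 with the replicate block, 1 with span offsets and the block, 6 without the 4 rats and 2 to 6 without a rat. All genes called lower, 1418 as reported, numbered 858 with total scaling, 836 without a filter and 907 to 1867 without a rat. All genes called higher, 1076 as reported, numbered 593 with span offsets, 1691 without the 4 rats and 659 to 1681 without a rat. At equal depth Ptbp2 over Ptbp1 was 0.28 (adjusted p = 0.10). Without a rat, the ratios ranged from 0.20 to 0.35 (Ptbp2 over Ptbp1), −0.18 to −0.12 (Rbfox3 over Rbfox1) and −0.25 to −0.14 (Rbfox3 over Rbfox2). Without the 4 rats Rbfox3 over Rbfox2 was −0.14 and Rbfox2 over Rbfox1 −0.025.

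The labels number the rats 1 to 10 in both groups without saying that a number marks a shared litter or day. Deviations from the group means correlated between same-numbered rats at −0.259 to 0.467 (mean 0.145, against −0.0157 for different numbers), over 0.1 in 6 of 10 pairs, and 3 of 20 rats correlated best with their own number, and the numbers were not used as pairs since not every pair was over 0.1. With the replicate block edgeR called 2961 genes against 2494 (9.67% of genes lower), and Rbfox3 (−0.18, adjusted p = 0.0371) beside Celf4 and Elavl3, and Rbfox1 with span offsets too (−0.16, adjusted p = 0.0378). With the block, flipping the signs of the 10 differences in all 1024 ways, an exact test, called none of the 8 ratios (4 at an unadjusted p under 0.05): −0.15 for Rbfox3 over Rbfox1, −0.22 for Rbfox3 over Rbfox2, −0.39 for Elavl3 over Elavl2 and −0.29 for Elavl3 over Elavl4 (adjusted p = 0.0742 each), and −0.10 for Elavl4 over Elavl2 and 0.28 for Ptbp2 over Ptbp1 (0.112 each).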
